A study of Mus musculus with 40 samples.

Results

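The genes of the proteasome were followed through 40 mouse RNA-seq libraries that make 5 treatment comparisons, with 4 libraries in each of 10 groups. Members were taken by symbol: every row of the expression table named Psma, Psmb, Psmc or Psmd with a number, plus Psme1, Psme2, Psme3 and Psme4, and without Psmb8 and Psmb9. This gave 41 genes of 23812 rows, of which 17 encode the core (Psma and Psmb) and 17 the regulatory cap (Psmc and Psmd). The other 7 are Psmd5, Psmd9 and Psmd10, chaperones that help build the cap and leave it, and the 4 activators.

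The proteasome is the protease that breaks down most short-lived and damaged proteins marked with ubiquitin. Its core is a stack of rings: outer rings of alpha subunits form the gate, and inner rings of beta subunits hold the cutting sites. A cap at either end binds ubiquitin chains, removes them, and unfolds the protein with a ring of ATPases. The activators can take the place of the cap. In immune cells and after interferon, inducible beta subunits such as Psmb10 replace their constitutive counterparts, and Psme1 and Psme2 rise with them.

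Whole ear skin came from MrgprdCre mice (the Mrgprdtm1.1(cre)And allele on a B6.129S1 background), from MrgprdDTR mice (that line crossed to C57BL/6 mice with the Gt(ROSA)26Sortm1(HBEGF)Awai allele), and from C57BL/6J mice whose ears received PBS or 50 mM β-alanine, a ligand of the MrgprD receptor, daily for 2 days. In MrgprdDTR mice Cre from the Mrgprd locus turns on the diphtheria toxin receptor, so that toxin removes MrgprD neurons, sensory fibres that end in the epidermis. The labels of both genotypes name an acetone and olive oil vehicle (4:1), and those of MrgprdDTR mice add diphtheria toxin (DT). The study's design and treatment texts give DT to both genotypes, over several weeks, so whether the MrgprdCre mice had toxin was not settled. Mast cells were sorted from these genotypes, or grown from the peritoneum of C57BL/6J mice and kept for 6 h in glutamate-free Tyrode's buffer with vehicle or 4 mM glutamate, or for 48 h with vehicle or 50 uM NS102, a glutamate receptor antagonist. The skin and sorted libraries are labelled Epidermal, although the design text names whole ears for skin, and neither ages nor the animal behind each library are given, so p-values measure the spread between libraries, which may be technical.

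Levels are FPKM, fragments scaled to transcript length and to the library's total, which allow genes to be compared per length. Changes are differences of log2(FPKM + 1), treated minus control, with their standard error (SE), tested with limma over all genes that reached 1 FPKM in 4 of the 8 libraries. A change passed the test at a Benjamini-Hochberg adjusted p under 0.05 over all genes tested. Summed FPKM ran from 117574 to 508485, with sorted MrgprdDTR libraries 3 and 4 lowest at 117574 and 126017, and the correlation between libraries of a group ran from 0.939 to 0.999. The mast cell markers summed to a median of 79.3 FPKM in MrgprdCre skin, 11828 FPKM in sorted MrgprdCre cells and 68516 FPKM in the 6 h vehicle cultures. Keratinocyte markers summed to at most 8.32 FPKM in any sorted library and 0.0735 FPKM in any cultured one. In bulk RNA, fewer cells of a type and less RNA per cell cannot be told apart.

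Nearly all members could be tested. Psma8 and Psmb11, the core subunits known from testis and thymus, stayed below 1 FPKM in all 40 libraries and were tested nowhere. Psme4, the large activator found mainly in the nucleus, stood at 16.6 ± 0.572 FPKM (SD, n = 4) in MrgprdCre skin, at 1.82 ± 0.604 FPKM in sorted MrgprdCre cells and at 0.593 ± 0.0454 FPKM in the 6 h vehicle cultures, where it missed the filter. That left 39 members tested in skin and sorted cells and 38 in cultured cells.

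Core genes stood above cap genes per length in every library. The median core member divided by the median cap member was 1.89 ± 0.0623 in MrgprdCre skin, 1.99 ± 0.142 in PBS skin, 2.86 ± 0.513 in sorted MrgprdCre cells, 2.54 ± 0.185 in cultured cells at 6 h and 2.53 ± 0.157 at 48 h (SD, n = 4 each). Between 8 and 10 of the 10 highest members of any group were core genes. Psmb3, a structural beta subunit, led in 5 of the groups that include both sorted ones, with 88.5 ± 14.2 FPKM in sorted MrgprdCre cells. The cap chaperone Psmd9 was the lowest member above 1 FPKM in all 4 cultured groups, at 8.16 ± 0.521 FPKM with vehicle for 48 h.

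Skin and mast cells differed in the level of the inducible subunit Psmb10 relative to Psmb7. Psmb10 replaces Psmb7, the trypsin-like catalytic subunit, when the immunoproteasome is built. Psmb10 itself ran from 7.03 to 9.62 FPKM in MrgprdCre skin and from 10.8 to 14.5 FPKM in sorted MrgprdCre cells. It ran from 20.4 to 22.3 FPKM in the 6 h vehicle cultures. Psmb7 ran from 181 to 203 FPKM, 9.77 to 24.1 FPKM and 28.4 to 30.5 FPKM in the same groups. A mouse gene table names copies for Psmb7, so its level is uncertain where reads could be split. Psmb10 reached 4.39 ± 0.471% of the Psmb7 level in MrgprdCre skin and 6.51 ± 0.684% in PBS skin. In sorted MrgprdCre cells it reached 90.5 ± 42.9% of Psmb7, and in cultured cells 73.2 ± 4.06% at 6 h and 89.0 ± 4.08% at 48 h (SD, n = 4 each). The skin percentages did not overlap with those of any mast cell group. Psmb10 was the lowest member above 1 FPKM in all 4 skin groups.

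**Figure D1:**
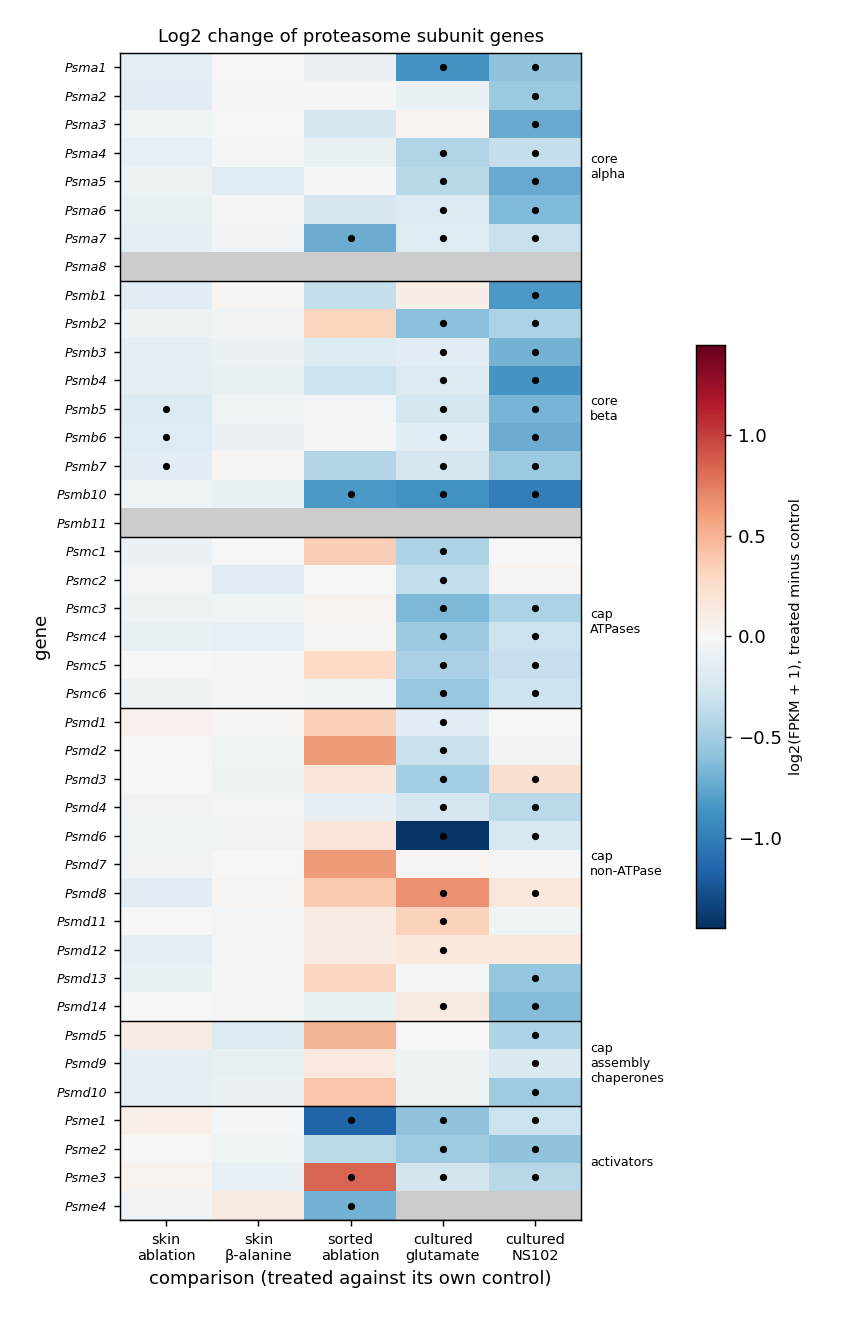
Log2 change of each of the 41 proteasome genes (rows, by subgroup) in the 5 comparisons (columns), from blue (lower when treated) to red (higher); a dot marks an adjusted p under 0.05 by limma and grey marks genes not tested. All 15 tested core genes carry a dot and are blue under NS102, while 8 of the 17 cap genes do and 2 cap genes are red with a dot.

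After 48 h with NS102 the whole tested core was lower, and only a portion of the cap. All 15 tested core genes fell (100% against 39.7% of all 8373 genes tested), with changes between -0.998 and -0.32 and a median of -0.67, which was -0.40 after quantile normalization, -0.44 with the trend over transcript length removed and -0.54 with summed FPKM made equal. Of 17 cap genes 8 fell and 2 rose (30.8% of all genes rose), with a median of -0.07 that turned to 0.08 after quantile normalization and 0.06 with summed FPKM made equal, against -0.06 for all genes. All 3 cap chaperones and the 3 tested activators fell too, so that 29 of 38 members were lower and 2 higher. NS102 and vehicle libraries overlapped for none of the 15 core genes, and 64.4% of all genes tested had groups without overlap.

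The catalytic subunits were among the genes that fell. Psmb5, which carries the chymotrypsin-like site that proteasome inhibitors target, read 105, 117, 118.04 and 107 FPKM with vehicle and 72.4, 72.9, 67.3 and 66.7 FPKM with NS102. The groups did not overlap, and the NS102 libraries kept to 66.7 to 72.9 FPKM. The change was -0.67 ± 0.06 (SE; limma adjusted p = 7.47e-07). Psmb6, the caspase-like subunit, read 129.9, 139, 142 and 135 FPKM with vehicle and 88.8, 86.8, 76.1 and 79.1 FPKM with NS102, a change of -0.72 ± 0.06 (limma adjusted p = 5.96e-07). Psmb7 read 34.1, 35.4, 35.7 and 32.7 FPKM and 21.96, 25.8, 22.3 and 23.6 FPKM, a change of -0.54 ± 0.06 (limma adjusted p = 7.32e-06). For each of these 3 catalytic subunits every NS102 library lay below every vehicle library.

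Psmb10 fell further than any other member. It read 29.9, 30.7, 30.9 and 31.05 FPKM with vehicle and 14.9, 15.4, 15.2 and 13.9 FPKM with NS102, a change of -0.998 ± 0.05 (limma adjusted p = 1.85e-08). Relative to Psmb7 it went from 87.7, 86.6, 86.5 and 95.05% with vehicle to 68.01, 59.6, 68.04 and 58.9% with NS102, with no overlap. Next came Psmb4, Psmb1 and Psma3, structural subunits of the inner and outer rings. Psmb4 read 59.4, 68.1, 61.5 and 62.1 FPKM with vehicle and 35.2, 39.3, 29.3 and 33.3 FPKM with NS102 (change -0.86 ± 0.08, limma adjusted p = 1.59e-06). Psmb1 read 165, 171, 182 and 164 FPKM and 99.8, 107, 84.8 and 90.6 FPKM (change -0.83 ± 0.07, limma adjusted p = 7.71e-07). Psma3 read 100.3, 109, 109.7 and 101 FPKM and 63.99, 66.96, 59.9 and 59.7 FPKM (change -0.73 ± 0.06, limma adjusted p = 3.28e-07). In Psmb4 and Psmb1 the NS102 libraries 3 and 4 were the lowest. The core genes that changed least were Psma7, at -0.32, and Psma4, at -0.34.

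Members of the cap went apart. Of the 6 ATPases Psmc3, Psmc4, Psmc5 and Psmc6 fell, while Psmc1 (0.00 ± 0.07) and Psmc2 (0.04 ± 0.06) did not pass the test. Psmc4 read 46.6, 44.1, 47.4 and 43.7 FPKM with vehicle and 35.1, 34.4, 37.8 and 38.1 FPKM with NS102, a change of -0.31 ± 0.05 (limma adjusted p = 0.000223) that did not pass after quantile normalization (-0.10, limma adjusted p = 0.0931). Psmd14, the enzyme that cuts ubiquitin chains off the substrate, read 43.6, 44.3, 45.2 and 38.95 FPKM and 29.1, 28.9, 26.1 and 25.8 FPKM. Its fall of -0.63 ± 0.06 (limma adjusted p = 3.23e-06) was the largest of the cap, and its groups did not overlap. Psmd13 (-0.56), Psmd4 (-0.39), a ubiquitin receptor, and Psmd6 (-0.24) fell as well.

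The cap genes that rose were Psmd3 and Psmd8, both subunits of the lid. Psmd8 read 67.4, 70.97, 71.5 and 66.8 FPKM with vehicle and 76.5, 78.9, 76.1 and 75.6 FPKM with NS102, without overlap (change 0.15 ± 0.05, limma adjusted p = 0.0117), and did not pass after median centring (0.13, limma adjusted p = 0.0749). Psmd3 read 15.4, 12.6, 13.6 and 13.5 FPKM and 14.4, 15.7, 17.9 and 17.7 FPKM, with groups that overlap (change 0.24 ± 0.08, limma adjusted p = 0.02), and did not pass without vehicle library 2 or NS102 library 3 or 4 (limma adjusted p between 0.0567 and 0.0679). The large scaffold subunits Psmd1 (0.01) and Psmd2 (-0.05), and Psmd7 (-0.03), Psmd11 (-0.07) and Psmd12 (0.15), did not pass the test.

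Among the activators, Psme2 read 147, 158, 166 and 148 FPKM with vehicle and 109, 106, 95.3 and 102 FPKM with NS102 (change -0.58 ± 0.06, limma adjusted p = 3.25e-06). Psme1, its partner in the same ring, read 57.1, 55.2, 57.6 and 53.99 FPKM and 43.8, 46.01, 45.00 and 44.2 FPKM (change -0.32 ± 0.05, limma adjusted p = 6.2e-05), and did not pass after quantile normalization (-0.07, limma adjusted p = 0.15). Psme3, which forms a ring of its own in the nucleus, read 28.9, 28.4, 27.02 and 24.6 FPKM and 19.6, 20.1, 22.1 and 19.7 FPKM (change -0.40 ± 0.06, limma adjusted p = 0.000121). All 3 were lower in every NS102 library than in any vehicle library.

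Levels of core and cap drew closer together. The ratio of the core to the cap median was 2.31, 2.56, 2.68 and 2.58 in the vehicle libraries and 1.89, 2.06, 1.68 and 1.76 in the NS102 libraries, without overlap. The members together made up 0.657, 0.679, 0.680 and 0.654% of summed FPKM with vehicle and 0.515, 0.518, 0.528 and 0.535% with NS102. The median core change stood 0.60 below the median cap change, and between 0.40 and 0.65 below it over 18 other settings. Longer transcripts had higher changes under NS102 over 7887 genes (Spearman's rho 0.38 across genes, a description). Core transcripts, with a median of 1311 bases, are shorter by this median than cap transcripts at 1983. Length is that of the longest transcript GENCODE lists for a symbol, which need not be the one expressed. The medians cover all 17 core genes, also the untested Psma8 and Psmb11, and 17 cap genes. With the trend over length removed, 12 of the 15 core genes were lower and the core median lay 0.40 below the cap median. Over 18 other settings between 12 and 15 core genes were lower. All 3 tested proliferation markers were lower as well, their list summing to a median of 10.9 FPKM with vehicle and 3.05 FPKM with NS102, with no overlap. The mast cell markers summed to 65819 to 68491 FPKM with vehicle and 70028 to 82500 FPKM with NS102, with 7 of 10 higher and 2 lower. The basophil markers summed to 569 to 620 FPKM and 575 to 637 FPKM, with 2 of 4 tested higher and 1 lower. The macrophage and monocyte markers summed to 19.6 to 38.4 FPKM and 19.8 to 23.1 FPKM (1 of 2 tested higher, 1 lower), and the red blood cell markers to 5.27 to 6.64 FPKM and 1.84 to 3.36 FPKM (1 of 2 tested lower). The part of these lists in the result was not tested.

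**Figure D2:**
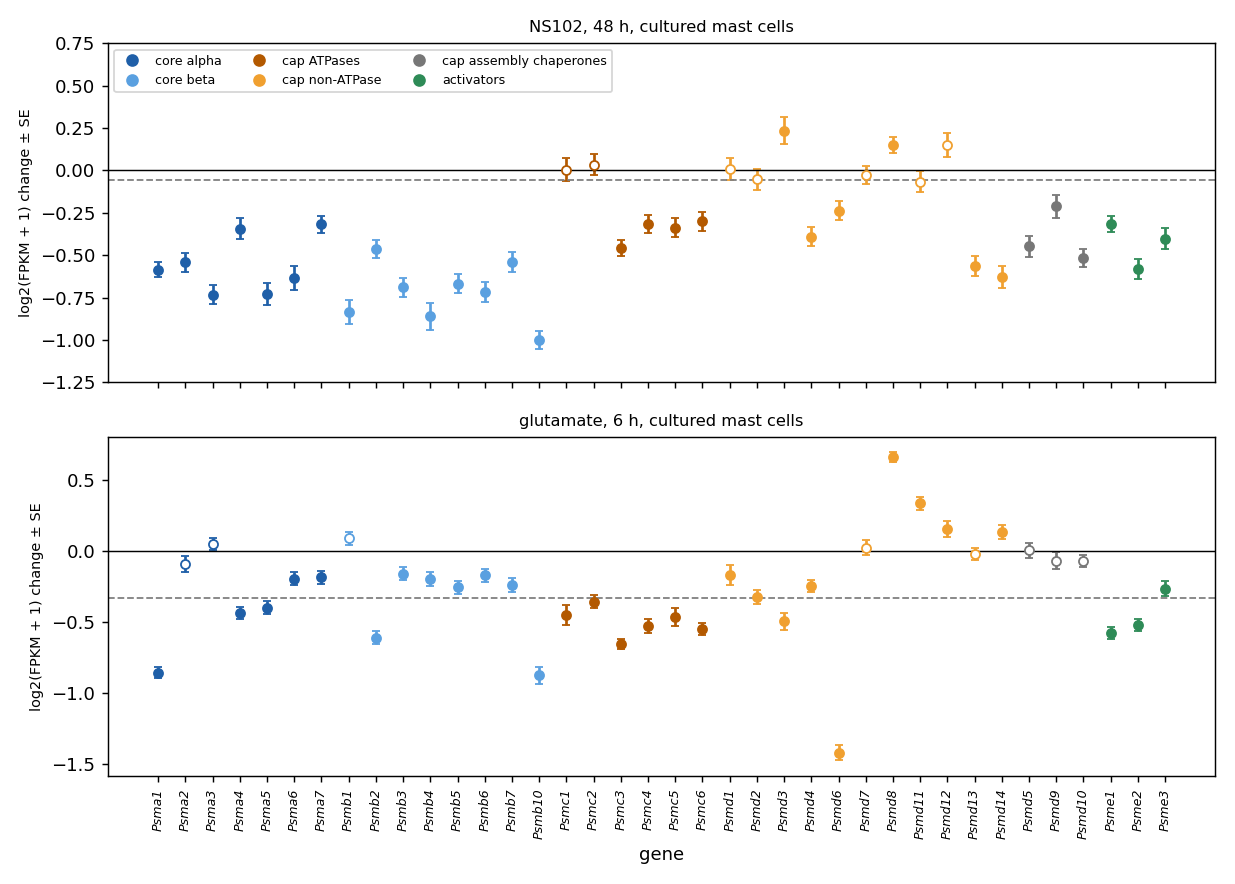
Change in log2(FPKM + 1) ± SE of each tested proteasome gene in cultured mast cells (NS102 against vehicle at 48 h, top; glutamate against vehicle at 6 h, bottom; 4 libraries per group), coloured by subgroup, filled where the limma adjusted p is under 0.05; the dashed line is the median of all genes tested. Under NS102 all core genes (blue) lie below the dashed line at -0.06, while under glutamate the ATPases (brown) lie below the line at -0.33 and most core genes above it.

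Promoters of 5 members are printed because the core and cap medians lay apart under NS102 and because their windows hold the motifs searched for. The windows span 250 bases before to 50 bases after the transcript start, from RefSeq on GRCm38.p6, read 5′ to 3′ on the gene's strand. Capitals mark matches to TGACNNNGC, the core of the antioxidant response element to which Nfe2l1 and Nfe2l2 are known to bind, and to CCGGAAG, a core of the sites of ETS factors, on either strand, so that a match on the other strand is printed reversed (CTTCCGG for CCGGAAG). Psmb5 (chr14:54617946-54618245 on the minus strand) and Psmb6 (chr11:70525107-70525406 on the plus strand) are catalytic core genes. Psmc1 (chr12:100109952-100110251 on the plus strand), an ATPase, and Psmd11 (chr11:80428365-80428664 on the plus strand) and Psmd12 (chr11:107479278-107479577 on the plus strand), lid subunits, are cap genes that did not pass the test under NS102.
Psmb5: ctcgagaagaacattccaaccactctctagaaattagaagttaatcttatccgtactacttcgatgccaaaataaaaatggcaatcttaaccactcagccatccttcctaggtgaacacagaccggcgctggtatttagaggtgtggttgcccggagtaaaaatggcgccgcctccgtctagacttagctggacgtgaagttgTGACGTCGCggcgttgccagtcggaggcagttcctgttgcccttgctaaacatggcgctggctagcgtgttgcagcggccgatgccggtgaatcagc
Psmb6: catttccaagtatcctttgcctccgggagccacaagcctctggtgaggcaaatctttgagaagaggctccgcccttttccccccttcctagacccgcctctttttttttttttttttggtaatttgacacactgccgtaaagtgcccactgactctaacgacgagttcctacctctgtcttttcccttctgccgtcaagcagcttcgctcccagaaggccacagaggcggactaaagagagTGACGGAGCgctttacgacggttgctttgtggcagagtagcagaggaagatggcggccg
Psmc1: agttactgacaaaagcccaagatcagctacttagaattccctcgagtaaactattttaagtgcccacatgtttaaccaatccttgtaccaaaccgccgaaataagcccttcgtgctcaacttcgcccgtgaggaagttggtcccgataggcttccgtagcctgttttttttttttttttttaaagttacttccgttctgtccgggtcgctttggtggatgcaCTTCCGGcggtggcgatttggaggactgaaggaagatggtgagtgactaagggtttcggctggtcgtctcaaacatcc
Psmd11: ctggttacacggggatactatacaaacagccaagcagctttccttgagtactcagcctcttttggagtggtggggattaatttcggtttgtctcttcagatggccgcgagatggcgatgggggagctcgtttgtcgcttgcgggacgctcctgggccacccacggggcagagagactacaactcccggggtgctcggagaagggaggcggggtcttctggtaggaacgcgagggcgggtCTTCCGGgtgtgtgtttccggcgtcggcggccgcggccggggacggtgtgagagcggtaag
Psmd12: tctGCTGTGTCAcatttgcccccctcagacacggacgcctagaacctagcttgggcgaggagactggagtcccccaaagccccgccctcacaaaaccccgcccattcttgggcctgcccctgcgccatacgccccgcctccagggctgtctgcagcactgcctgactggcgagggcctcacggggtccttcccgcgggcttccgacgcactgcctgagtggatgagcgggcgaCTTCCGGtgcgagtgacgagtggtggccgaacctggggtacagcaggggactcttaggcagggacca

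In Psmb5 the match TGACGTCGC begins 47 bases before the start, and in Psmb6 the match TGACGGAGC begins 9 bases before it. CTTCCGG begins 28 bases before the start in Psmc1, 11 in Psmd11 and 17 in Psmd12, and Psmd12 also holds GCTGTGTCA far upstream. Of the 41 members 34 had a window. TGACNNNGC occurred in the windows of 2 of 13 core genes (15.4%) and 2 of 14 cap genes (14.3%), against 14% of all 27025 genes with a window. CCGGAAG occurred for 1 of 13 core genes (7.69%, Psma6) and 9 of 14 cap genes (64.3%), against 9.93% of all genes. CCAAT, a motif common in promoters, occurred for 7 of 13 core genes (53.8%) and 4 of 14 cap genes (28.6%), against 41.1% of all genes. CCAAT and CCGGAAG were chosen after values were seen, and a match is a description of the letters, not of binding. The cap genes with CCGGAAG moved in several ways under NS102: Psmc6, Psmd4, Psmd6 and Psmd13 fell, while Psmc1, Psmc2, Psmd2, Psmd11 and Psmd12 did not pass the test.

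Glutamate for 6 h moved most genes of the table, and the proteasome genes moved with them. Of the 38 tested members 26 fell (68.4% against 62.4% of all 8297 genes tested) and 4 rose (10.5% against 16.9%). The groups did not overlap for 27 tested members, against 74.3% of all genes. The median change was -0.24 for the members and -0.33 for all genes. The direction of the list depended on scaling: with the log2 values centred on each library's median 22 members were higher and 7 lower, and with summed FPKM made equal 2 were higher and 33 lower. Members past the test in the same direction in all 5 treatments of the values tried (as deposited, median centring, quantile normalization, equal sums and removal of the length trend) were 7 lower (Psma1, Psmb2, Psmb10, Psmc3, Psmc6, Psmd6 and Psme1) and 2 higher (Psmd8 and Psmd11).

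In the values as deposited the 6 ATPases fell together, from -0.66 for Psmc3 to -0.36 for Psmc2, and all 6 lay below the median of all genes. After median centring only Psmc3 and Psmc6 of these ATPases passed the test as lower. Psmc3 read 50.8, 51.3, 50.2 and 51.4 FPKM with vehicle and 31.1, 32.5, 31.6 and 32.7 FPKM with glutamate (change -0.66 ± 0.04, limma adjusted p = 2.55e-09). Psmc4 read 26.01, 25.9, 24.6 and 26.4 FPKM and 18.3, 16.5, 16.96 and 18.4 FPKM (change -0.53 ± 0.05, limma adjusted p = 3.36e-07), and did not pass after median centring (-0.12, limma adjusted p = 0.0624). Neither gene's groups overlapped.

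Subunits of the lid held the extremes in both directions. Psmd6 read 20.6, 22.3, 21.7 and 21.02 FPKM with vehicle and 7.86, 7.06, 6.87 and 7.80 FPKM with glutamate, which is 65.4% lower on average (chr14:14944698-14953418, mm9). Its change of -1.42 ± 0.06 (limma adjusted p = 1.7e-10) was the lowest of all members in any comparison. Psmd8 went the other way, from 67.9, 68.2, 65.5 and 66.01 FPKM to 107, 109, 107 and 103 FPKM (change 0.66 ± 0.03, limma adjusted p = 1.33e-09). Psmd11, a lid subunit that helps hold core and cap together, rose from 28.4, 29.2, 25.7 and 27.6 FPKM to 34.02, 36.05, 35.5 and 35.1 FPKM (change 0.33 ± 0.05, limma adjusted p = 1.53e-05).

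Psmd12 and Psmd14 also passed the test as higher, by small amounts. Psmd12 read 17.02, 16.5, 14.7 and 17.2 FPKM with vehicle and 18.6, 18.1, 18.8 and 17.5 FPKM with glutamate (change 0.15 ± 0.05, limma adjusted p = 0.0205). Psmd14 read 28.3, 33.03, 28.9 and 31.7 FPKM and 32.7, 32.8, 34.3 and 34.2 FPKM, with groups that overlap (change 0.13 ± 0.05, limma adjusted p = 0.0294). With equal summed FPKM both changes turned to the other side of 0, at -0.0079 and -0.032, and without glutamate library 3 only 2 members passed as higher. Psmd12 also missed the threshold without vehicle library 3 or glutamate library 1, and Psmd14 without a filter, vehicle library 1 or 3, or glutamate library 4.

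In the core, 12 of 15 genes fell and none rose, with a median of -0.20 that turned to 0.22 after median centring. Psma1, an alpha subunit of the gate ring, read 81.8, 80.4, 87.1 and 86.4 FPKM with vehicle and 46.4, 47.6, 44.2 and 45.6 FPKM with glutamate (change -0.85 ± 0.04, limma adjusted p = 6.29e-10). Psmb10 read 21.7, 20.4, 22.3 and 22.2 FPKM and 12.2, 12.1, 10.6 and 10.6 FPKM (change -0.88 ± 0.06, limma adjusted p = 1.83e-08). Against Psmb7 it went from 71.2, 69.1, 78.5 and 73.9% to 46.5, 53.6, 41.6 and 41.3%, without overlap. The catalytic subunits changed less: Psmb5 by -0.26 ± 0.04, Psmb6 by -0.17 ± 0.04 and Psmb7 by -0.24 ± 0.05, all past the test by limma, and all turned to higher after median centring. Psmb6 did not pass with the length trend removed (-0.04, limma adjusted p = 0.469). Psmb1 (0.09) and Psma3 (0.05), which were among the lowest under NS102, did not pass the test here.

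Psme1 read 45.2, 46.4, 44.8 and 45.7 FPKM with vehicle and 32.2, 29.3, 30.2 and 28.98 FPKM with glutamate (change -0.58 ± 0.04, limma adjusted p = 3.44e-08). The row of Emc9, which overlaps that of Psme1, went from a mean of 26.8 to 16.3 FPKM in the same cells. Reads of Psme1 and Emc9 may not be separable. Psme2 read 106, 105, 114 and 109 FPKM and 71.99, 73.3, 74.1 and 81.9 FPKM (change -0.52 ± 0.04, limma adjusted p = 1.81e-07), and did not pass after median centring (-0.11, limma adjusted p = 0.121). Psme3 changed by -0.27 ± 0.05 (limma adjusted p = 0.0003) and turned to higher after median centring. Psme4, below the filter, read 0.605, 0.552, 0.564 and 0.652 FPKM with vehicle and 0.194, 0.145, 0.152 and 0.171 FPKM with glutamate. The members' share of summed FPKM was 0.525, 0.523, 0.536 and 0.534% with vehicle and 0.400, 0.402, 0.412 and 0.404% with glutamate, without overlap.

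The mast cell markers of these libraries summed to 67992 to 70643 FPKM with vehicle and 92500 to 94440 FPKM with glutamate (6 of 10 higher, 3 lower), and the macrophage and monocyte markers to 35.3 to 42.2 FPKM and 15.8 to 28.4 FPKM (1 of 2 tested lower). The basophil markers summed to 815 to 855 FPKM with vehicle and 1019 to 1065 FPKM with glutamate, without overlap, with 3 of 4 tested higher and 1 lower. The proliferation markers summed to 27.8 to 31.6 FPKM and 32.6 to 35.98 FPKM (2 of 4 tested higher, 1 lower), and the T cell markers to 3.45 to 4.23 FPKM and 2.03 to 3.00 FPKM (1 of 2 tested lower). Their part in the changes was not tested.

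Core against cap gave mixed readings under glutamate. The ratio of the core to the cap median was 2.34, 2.42, 2.72 and 2.67 with vehicle and 2.18, 2.20, 2.22 and 2.21 with glutamate, without overlap, whereas the ratio of the core to the cap sum overlapped. The median change of the core lay 0.13 above that of the cap, so that level ratio and median change differ in sign, and the gap ran from -0.08 to 0.16 over 18 other settings.

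The difference between the NS102 and the glutamate effect was tested as an interaction over the 16 cultured libraries. It passed the test for 26 of 38 members, against 75.9% of all 8896 genes tested, 52.5% higher and 23.3% lower. In the core 10 genes were lower under NS102 than under glutamate, relative to their own vehicles, and 1 (Psma1) was higher. In the cap 4 were lower and 8 higher, 5 of these ATPases. The directions depended on scaling: after median centring 15 core genes were lower and none higher, and 13 cap genes lower and 2 higher. With equal summed FPKM 5 core genes were lower and 4 higher, and 3 cap genes lower and 12 higher. The largest differences were those of Psmd6, at 1.18 (limma adjusted p = 8.51e-11), and Psmb1, at -0.92 (limma adjusted p = 2.07e-08). Psmd14 differed by -0.76 (limma adjusted p = 1.31e-07). After median centring 36 members passed, 34 of them lower, and the differences of Psma1, Psmc3, Psmc4 and Psme1 turned negative. With equal summed FPKM Psmb5 (-0.11), Psmb7 (-0.0078) and Psmd11 (-0.10) no longer passed. Time in culture also differs between these experiments. The medium may differ too, as glutamate-free Tyrode's buffer is named above for the 6 h cells only. Neither time nor medium can be told apart from the agents.

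**Figure D3:**
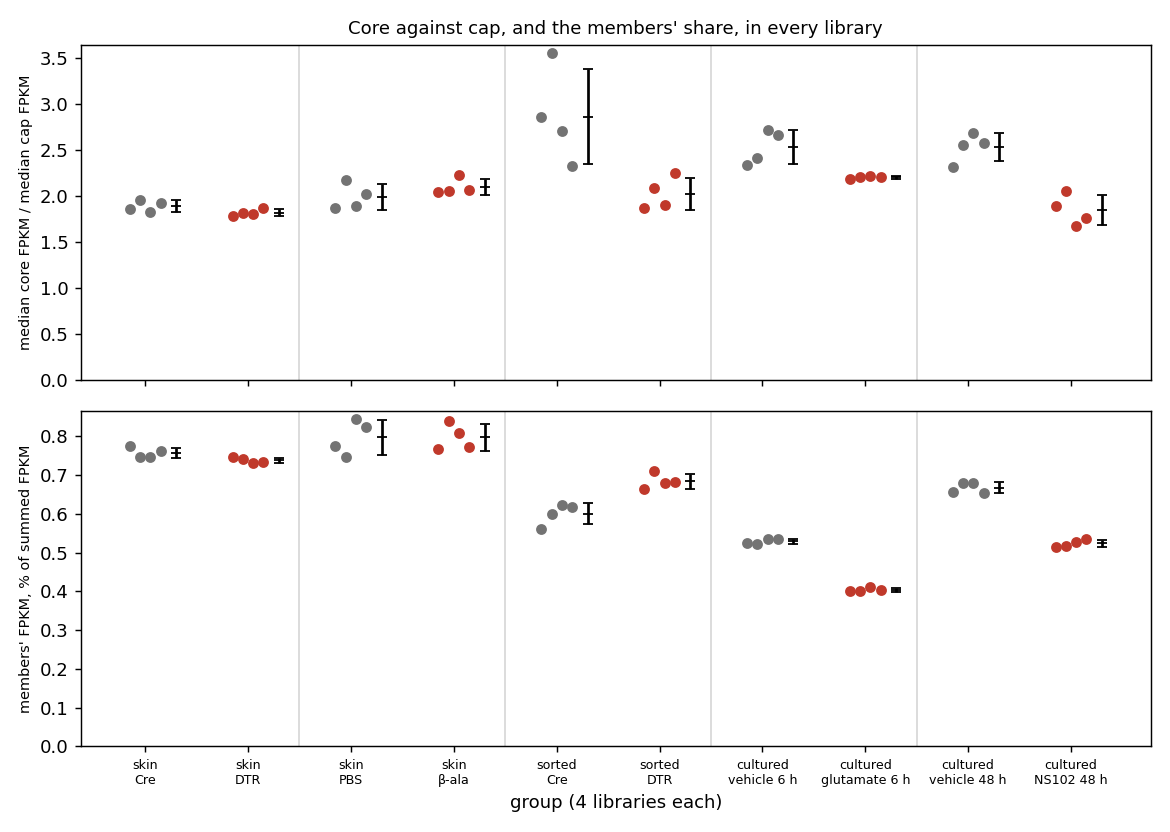
For each of the 40 libraries (points; red for treated, grey for control; bars are mean ± SD, n = 4), the median core FPKM divided by the median cap FPKM (top) and the 41 proteasome genes' percent of summed FPKM (bottom). The treated libraries lie below their controls in the ratio for sorted cells, glutamate and NS102, and in the share for glutamate and NS102. In ablated skin the share also lies below, narrowly (0.747 to 0.775% in MrgprdCre and 0.731 to 0.746% in MrgprdDTR skin). In sorted cells the share is higher after ablation.

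Sorted mast cells from MrgprdDTR mice showed fewer changes, in libraries that varied more. Of 39 tested members 4 were lower (10.3% against 16.9% of all 8871 genes tested) and 1 higher (2.56% against 18.9%). The median change was -0.20 in the core, turning to 0.05 after quantile normalization and 0.10 with equal summed FPKM, and 0.18 in the cap, against 0.13 for all genes. Among core genes 14 of 15 had a change below 0, and among cap genes 4 of 17, while 42% of all genes tested did. The calls depended on scaling and on libraries: with equal summed FPKM 17 members were higher and 4 lower, and without MrgprdDTR libraries 3 and 4 together 6 were higher and 1 (Psme1) lower. Without these 2 libraries the core median was 0.16 and the cap median 0.49. Leaving out library 3 or 4 of MrgprdDTR alone left 2 members lower, with 3 and 2 higher, and leaving out MrgprdCre library 3 or 4 gave 2 higher.

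The activators moved in opposite directions. Psme1 read 57.2, 59.4, 41.8 and 56.96 FPKM in MrgprdCre cells and 30.9, 25.9, 18.2 and 20.05 FPKM in MrgprdDTR cells, with no overlap (change -1.16 ± 0.23, limma adjusted p = 0.000566). Psme3 read 6.98, 7.72, 7.45 and 4.58 FPKM and 14.6, 15.5, 10.3 and 10.8 FPKM, again with no overlap (change 0.85 ± 0.24, limma adjusted p = 0.00877). Psme4 read 1.81, 1.62, 1.22 and 2.65 FPKM and 0.789, 1.23, 0.470 and 0.506 FPKM, values near the filter that overlap slightly (change -0.69 ± 0.23, limma adjusted p = 0.0225). Psme1, Psme3 and Psme4 were the only members past the test in the same direction in those 5 treatments of the values. Psme4 did not pass without MrgprdDTR library 1, 3 or 4 (limma adjusted p between 0.052 and 0.0786), and Psme1 (-0.89) and Psme3 (1.08) passed without libraries 3 and 4 together.

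Psme2 did not pass the test, reading 41.9, 49.7, 43.8 and 38.8 FPKM in MrgprdCre cells and 42.7, 40.7, 26.6 and 24.9 FPKM in MrgprdDTR cells (change -0.39 ± 0.23, limma adjusted p = 0.2). Psme1 as a percent of Psme2 was 137, 119.6, 95.6 and 147% in MrgprdCre cells and 72.5, 63.6, 68.4 and 80.5% in MrgprdDTR cells, without overlap. This ratio was looked at after the values were seen. Psme1 (chr14:56197330-56200364, mm9) overlaps the row of Emc9, which went from 9.77 to 3.07 FPKM in the same cells. Whether counting used strand is not given in the sources used here, so reads of Psme1 and Emc9 may not be separable. Copies that a mouse gene table names for Psme2, Psmb5, Psmb6 and Psmb7 make their values uncertain where reads could be split.

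In the core, Psmb10 read 14.5, 12.97, 11.3 and 10.8 FPKM in MrgprdCre cells and 9.28, 7.13, 5.04 and 5.20 FPKM in MrgprdDTR cells, without overlap (change -0.83 ± 0.24, limma adjusted p = 0.00982). Without MrgprdDTR libraries 3 and 4 it did not pass, at -0.54 (limma adjusted p = 0.0668). Psma7, an alpha subunit, read 97.3, 94.6, 66.05 and 60.6 FPKM and 55.8, 63.4, 34.1 and 40.4 FPKM, with overlap (change -0.72 ± 0.25, limma adjusted p = 0.0302), and did not pass without MrgprdCre library 1 or 2 or MrgprdDTR library 3 or 4. The constitutive catalytic subunits did not pass the test, with changes of -0.04 ± 0.23 for Psmb5, -0.03 ± 0.25 for Psmb6 and -0.42 ± 0.28 for Psmb7. Psmc4 (0.04 ± 0.24) and Psmd14 (-0.09 ± 0.30) did not pass either. Psmd14 read 19.1, 10.9, 17.9 and 41.9 FPKM in MrgprdCre cells, where library 4 stood well above the other libraries.

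The ratio of the core to the cap median was 2.86, 3.55, 2.71 and 2.32 in MrgprdCre cells and 1.87, 2.08, 1.90 and 2.25 in MrgprdDTR cells, so the groups came close without overlapping. The gap between the core and cap median changes was -0.38, and ran from -0.41 to -0.20 over 18 other settings. Markers listed for other cells moved with these results. The basophil list is not found in sorted cells alone, as it summed to 815 to 855 FPKM in the 6 h vehicle cultures of peritoneal mast cells. The 5 basophil markers summed to 2249 to 3777 FPKM in MrgprdCre and 111 to 192 FPKM in MrgprdDTR libraries, with 4 of 5 lower. The 7 macrophage and monocyte markers summed to 41.4 to 51.5 FPKM and 6.82 to 17.4 FPKM, with 3 of 5 tested lower. The 10 mast cell markers summed to 9770 to 14270 FPKM and 18023 to 29386 FPKM, with 6 higher and 2 lower. The 6 red blood cell markers reached 664 FPKM in 1 MrgprdCre library and at most 0.440 FPKM in MrgprdDTR libraries, and the 5 T cell markers at most 4.28 FPKM and 0.310 FPKM. Of the proliferation markers 2 of 2 tested were higher. No macrophage or basophil marker was at 0 throughout, and the part of such cells in the results was not tested.

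**Figure D4:**
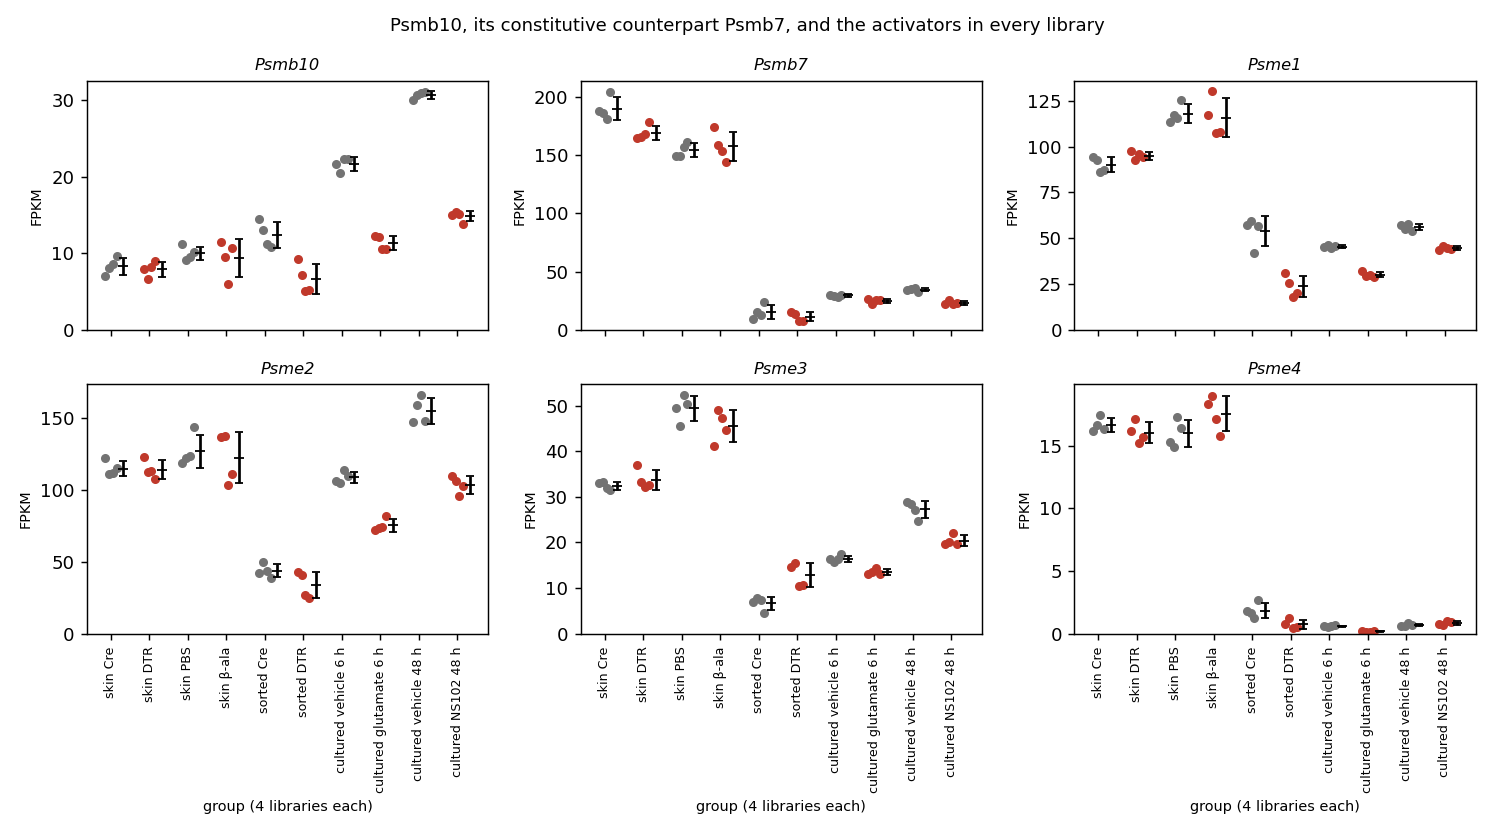
FPKM of Psmb10, Psmb7 and the 4 activators in each of the 40 libraries by group (points; red for treated, grey for control; bars are mean ± SD, n = 4). Psmb10 and Psme1 are lower in every MrgprdDTR, glutamate and NS102 library of mast cells than in any of the matching controls, while Psme3 is higher in every sorted MrgprdDTR library; in skin the groups of these 3 genes overlap.

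In whole skin of MrgprdDTR mice 3 of the 15 tested core genes were lower past the test, by small amounts. MrgprdCre and MrgprdDTR mice differ in alleles, in stock and, per the labels, in toxin. For skin and sorted cells alike, these differences cannot be told apart from neuron ablation. Of 39 tested members 3 fell (7.69% against 6.25% of all 12607 genes tested) and none rose (7.38% of all genes did). At an unadjusted p under 0.05 by limma 15 members were lower and 0 higher, against 32.1% of all genes in either direction. The 3 were the catalytic subunits Psmb5, Psmb6 and Psmb7, whose values are uncertain where reads could be split with the copies named above. All 15 tested core genes and 12 of 17 cap genes had a change below 0, as did 45.6% of all genes, with medians of -0.13 for the core and 0.01 for all genes. The core median was -0.04 after quantile normalization, -0.06 with the trend over transcript length removed and -0.07 with equal summed FPKM. The cap median was -0.05, and 0.0080 after quantile normalization, 0.0033 with equal summed FPKM and -0.03 with the length trend removed. Changes in skin rose with transcript length over 11873 genes (Spearman's rho 0.30 across genes, a description), and core transcripts are the shorter ones by their median.

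Psmb5 read 157, 156, 159 and 165 FPKM in MrgprdCre skin and 139.8, 131, 140.4 and 142 FPKM in MrgprdDTR skin, 12.9% lower on average (change -0.20 ± 0.04, limma adjusted p = 0.013). Psmb6 read 134, 135, 138 and 153 FPKM and 129.6, 120.0, 121 and 123 FPKM (change -0.18 ± 0.05, limma adjusted p = 0.0384). Psmb7 read 188, 186, 181 and 203 FPKM and 165, 165, 168 and 178 FPKM (change -0.17 ± 0.05, limma adjusted p = 0.0425). None of the 3 had groups that overlap, as was so for 11 of 39 members and 21.4% of all genes tested. None of the 3 passed after quantile normalization or with the spread taken from all 4 skin groups. Psmb6 also missed the threshold with replicate number as a block (limma adjusted p = 0.0586), without a filter, with the length trend removed (change -0.08, limma adjusted p = 0.321), and without any 1 of libraries 2, 3 and 4 of either genotype. Psmb7 missed it without a filter, with equal summed FPKM, and without MrgprdCre library 1, 2 or 4 or MrgprdDTR library 1, 2 or 3. Psmb5 missed it with the length trend removed (change -0.09, limma adjusted p = 0.165). Leaving out MrgprdCre library 2 or 4, or MrgprdDTR library 2 or 3, left 1 member lower, and leaving out MrgprdCre library 3 gave 8.

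Psmb10, Psmc4, Psmd14 and the 4 activators did not pass the test in ablated skin. Psmd14 stood at 51.2 ± 1.96 and 51.2 ± 2.85 FPKM in MrgprdCre and MrgprdDTR skin (SD, n = 4). Psme1 stood at 90.1 ± 4.12 and 95.1 ± 2.16 FPKM and Psme3 at 32.4 ± 0.844 and 33.8 ± 2.21 FPKM. Psmc4 stood at 52.7 ± 2.76 and 48.7 ± 1.58 FPKM, and Psmb10 at 8.32 ± 1.08 and 7.93 ± 0.984 FPKM. The ratio of the core to the cap median overlapped between the genotypes, while the ratio of the sums was 1.60, 1.62, 1.60 and 1.64 in MrgprdCre and 1.497, 1.53, 1.53 and 1.55 in MrgprdDTR skin, without overlap. All 7 skeletal muscle markers (summing to 1210 to 2817 FPKM in MrgprdCre and 622 to 858 FPKM in MrgprdDTR skin) and all 7 adipocyte markers (494 to 593 FPKM and 208 to 256 FPKM) were lower, and all 9 tested mast cell markers, 3 of 5 proliferation markers, 2 of 7 keratinocyte markers and 1 of 7 macrophage and monocyte markers were higher. Of the red blood cell, T cell and basophil markers tested none passed. Their part in the changes of the core was not tested.

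The ablation effect differed between sorted cells and skin for 4 of 39 members, against 27.7% of 13153 genes, in an interaction over 16 libraries. Psme1 differed by -1.24 (limma adjusted p = 0.000384), Psmb10 by -0.77 (limma adjusted p = 0.0203) and Psme4 by -0.64 (limma adjusted p = 0.0323), all lower in sorted cells. Psme3 differed by 0.79 (limma adjusted p = 0.0112). Psme4 did not pass with a pseudocount of 5 (-0.20, limma adjusted p = 0.111), nor without any 1 of libraries 1, 2 and 4 of MrgprdCre or MrgprdDTR skin or libraries 3 and 4 of sorted MrgprdDTR cells (limma adjusted p between 0.0505 and 0.0639). After quantile normalization 17 members differed, with equal summed FPKM 21, and without MrgprdDTR library 3 of the sorted cells 7.

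β-alanine on the ear changed no proteasome gene past the test. By limma 0 of 39 members were higher and 0 lower, against 0.0157% and 0.197% of all 12709 genes tested, and 2 members (Psma5 at -0.18 and Psmd5 at -0.20) had an unadjusted p under 0.05, as did 9.81% of all genes. The median change was -0.04 for the members and for all genes. Psmb5 stood at 107 ± 9.82 and 103 ± 12.2 FPKM with PBS and β-alanine (SD, n = 4), a change of -0.06 ± 0.10. Psmb10 stood at 9.999 ± 0.880 and 9.42 ± 2.46 FPKM, Psmc4 at 77.3 ± 8.04 and 71.1 ± 4.38 FPKM, Psmd14 at 58.1 ± 2.90 and 56.9 ± 4.06 FPKM, and Psme3 at 49.4 ± 2.83 and 45.6 ± 3.46 FPKM, all with groups that overlap, as did those of all tested members but Psmd5 (6.43% of all genes had groups without overlap). The mast cell markers summed to a median of 219 FPKM with PBS and 7.46 FPKM with β-alanine in the same libraries, with 6 of them lower. The ratio of the core to the cap median overlapped between PBS and β-alanine skin.

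Other genes of the ubiquitin and proteasome pathway were read from a list of 34. Under NS102 13 rose (38.2% against 30.8% of all genes tested) and 11 fell (32.4% against 39.7%). All 5 genes whose products assemble the core (Pomp, Psmg1, Psmg2, Psmg3 and Psmg4) fell, with a median of -0.48. Rps27a, which encodes ubiquitin fused to a ribosomal protein, read 391, 427, 433 and 451 FPKM with vehicle and 175, 194, 137 and 170.4 FPKM with NS102, without overlap (change -1.33 ± 0.09, limma adjusted p = 1.48e-07).

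The transcription factor genes Nfe2l1 and Nfe2l2 are described although they fall outside the naming rule, chosen after their values were seen. Nfe2l1, whose product is known to raise proteasome genes when the proteasome is inhibited, read 5.38, 4.59, 4.72 and 4.71 FPKM with vehicle and 9.25, 9.07, 12.3 and 12.1 FPKM with NS102 (change 0.99 ± 0.10, limma adjusted p = 3.25e-06). Nfe2l2, known from the response to oxidative stress, read 20.2, 16.3, 18.3 and 16.97 FPKM and 33.7, 32.4, 39.9 and 39.8 FPKM (change 0.98 ± 0.08, limma adjusted p = 8.63e-07). Neither gene's groups overlapped. Higher Nfe2l1 was not particular to NS102. At 6 h it read at most 8.28 FPKM with vehicle and at least 9.13 FPKM with glutamate. In sorted cells it read at most 4.36 FPKM in MrgprdCre and at least 6.14 FPKM in MrgprdDTR libraries. Its groups overlapped in both skin comparisons. Nfe2l2 went the other way with glutamate, with at least 29.2 FPKM with vehicle and at most 26.4 FPKM with glutamate. In sorted cells and in ablated skin the groups of Nfe2l2 overlapped. In β-alanine skin Nfe2l2 read at most 26.8 FPKM, against at least 31.8 FPKM with PBS, a change that did not pass the test. Groups without overlap made up 6.43% of all genes tested there.

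With glutamate 5 of the 34 rose (14.7% against 16.9% of all genes tested) and 18 fell (52.9% against 62.4%), a split that turned to 20 higher and 7 lower when log2 values were centred on library medians. Ngly1, the enzyme that strips sugars from Nfe2l1 protein, read 16.7, 19.4, 18.05 and 18.4 FPKM with vehicle and 5.85, 5.85, 6.59 and 5.54 FPKM with glutamate (change -1.46 ± 0.06, limma adjusted p = 3.7e-10). Shfm1, the smallest subunit of the lid, rose by 0.57 ± 0.04 (limma adjusted p = 7.9e-09), and Psmg2 fell, with a change of -0.90 ± 0.07 (limma adjusted p = 5.3e-08). In sorted cells 4 of 33 tested rose (12.1% against 18.9% of all genes) and 5 fell (15.2% against 16.9%), and with equal summed FPKM 12 of 34 were higher and 5 lower. Rps27a changed by -1.70 ± 0.26 (limma adjusted p = 2.96e-05), and Faf1, an adaptor that helps deliver ubiquitinated proteins, by -1.46 ± 0.23 (limma adjusted p = 5.07e-05).

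In ablated skin 1 of the 34 rose (2.94% against 7.38% of all genes) and 3 fell (8.82% against 6.25%). Uba1, the main ubiquitin activating enzyme, changed by 0.21 ± 0.04 (limma adjusted p = 0.00852). Vcp, the unfoldase that pulls ubiquitinated proteins out of complexes, changed by -0.20 ± 0.04 (limma adjusted p = 0.00886), and Shfm1 by -0.23 ± 0.06 (limma adjusted p = 0.0284). With β-alanine 0 of the 34 passed the test by limma.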

How the data were processed

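RNA from 40 mouse libraries was sequenced on a HiSeq-2500, per the labels' protocols, with 4 libraries in each of 10 groups. The authors used STAR, Cufflinks and the mm9 build, per the submitters' processing notes, whose versions are not given in the sources used here. The deposited table holds FPKM per gene, a unit read from the values and the named tool, so depth is unknown and counting error could not be set. Relative depths of libraries were sought from genes with low values. At the best depth, a gene's values in 2 libraries stood in a whole-number ratio (within 0.03 on the log2 scale) for 55.2 to 78.0% of genes. That was too few to recover reads.

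Values were tested as log2(FPKM + 1) with limma 3.58.1 in R 4.3.3, with a trend in the variance, on genes at 1 FPKM or more in at least 4 libraries of the comparison, with Benjamini-Hochberg adjustment over all genes tested. Each comparison used its own 8 libraries and each interaction 16. Fold changes on this scale understate those of low genes. The code was tested on simulated data. Where a symbol had several rows, the row of highest mean was used. The genes named with values in each comparison were the 4 largest changes in each direction past the test with 5 FPKM or more in the higher group, Psmb5, Psmb6, Psmb7, Psmb10, Psmc4, Psmd14 and the activators, and up to 3 pathway genes by p, of which some are not reported here; further members are named to describe their subgroup. Members and lists were chosen with earlier results of these data known. Promoter windows are from RefSeq and were searched for letters only. Alternatives varied the pseudocount (0.1 and 5), the filter (none and 5 FPKM), the scaling, a replicate block, a spread shared by 4 groups, the length trend and each library in turn.

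Replicate numbers have no stated source, and the main fits did not pair libraries by them. Marker lists covered mast cells, keratinocytes, macrophages and monocytes, basophils, skeletal muscle, adipocytes, red blood cells, T cells and proliferation.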

Additional observations from a re-analysis of the deposited data

Results flagged for a closer look

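Among 134 sets of 4 libraries examined, 3 had 1 library far from the other 3, where chance gives about 1 in 20. Psme1 in sorted MrgprdCre library 3 stood at 41.8 FPKM, and the other libraries of that group lay between 56.96 and 59.4 FPKM. Psme4 in vehicle library 3 at 48 h stood at 0.82896 FPKM, below the filter, against 0.619 to 0.649 FPKM. The ratio of the core to the cap median in β-alanine skin library 3 was 2.23, against 2.05 to 2.07.

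The effect of ablation differed between sorted mast cells and skin by limma's interaction term for Psmb10 (-0.77), Psme1 (-1.24), Psme3 (0.79) and Psme4 (-0.64), on the log2 scale. Psme4 did not pass with a pseudocount of 5 (limma adjusted p = 0.111) or without any 1 of 8 libraries. The effects of NS102 and glutamate on cultured mast cells differed by the same kind of term. NS102 gave the lower change for Psmb1 (-0.92), Psma3 (-0.78), Psmd14 (-0.76), Psmb4 (-0.66), Psmb6 (-0.55), Psmd8 (-0.51), Psmb5 (-0.41), Psmd11 (-0.40) and Psmb7 (-0.30). It gave the higher change for Psmd6 (1.18), Psmd3 (0.73), Psma1 (0.27), Psme1 (0.26), Psmc4 (0.21) and Psmc3 (0.20). With equal summed FPKM the difference no longer passed for Psmb7 (-0.0078, limma adjusted p = 0.927), Psmb5 (-0.11, limma adjusted p = 0.0854) and Psmd11 (-0.10, limma adjusted p = 0.26), and after quantile normalization it no longer passed for Psmc4 (0.13, limma adjusted p = 0.122). After median centring it turned direction for Psma1, Psmc3, Psmc4 and Psme1.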

How the results depend on the processing

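Equal summed FPKM, removal of the length trend and leaving out MrgprdDTR libraries 3 and 4 together were chosen after seeing the data. In ablated skin the 3 members lower became 1 without a filter, 9 with median centring, 0 with quantile normalization, 0 with a spread shared by 4 groups and 1 with the length trend removed, and 1 to 8 with 1 library left out. In sorted cells the 1 member higher became 2 with a pseudocount of 5, 3 with a filter of 5 FPKM, 6 with median centring, 10 with quantile normalization, 17 with equal sums, 6 without MrgprdDTR libraries 3 and 4 and 3 with the length trend removed, and 1 to 3 with 1 library left out. The 4 lower became 6 with median centring, 2 without a filter, 1 without MrgprdDTR libraries 3 and 4 and 2 with the length trend removed, and 2 to 4 with 1 library left out. With glutamate the 4 higher became 22 with median centring, 12 with quantile normalization, 2 with equal sums and 15 with the length trend removed, and 2 to 4 with 1 library left out. The 26 lower became 7 with median centring and 15 with the length trend removed, and 25 to 27 with 1 library left out. With NS102 the 2 higher became 1 with median centring, 6 with quantile normalization and 5 with the length trend removed, and 1 to 3 with 1 library left out, while the 29 lower stayed between 23 and 29 over all settings. The sorted-against-skin difference, 4 members, became 11 with median centring, 17 with quantile normalization and 21 with equal sums, and 3 to 7 with 1 library left out. The difference between NS102 and glutamate passed for 26 to 36 members over all settings and 26 to 28 with 1 library left out, but its 10 higher and 16 lower became 2 and 34 with median centring and 18 and 10 with equal sums. With β-alanine no setting called a member. The cause of these moves was not tested.

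Median centring moved the median of all genes under glutamate from -0.33 to 0.08, and equal sums moved that of sorted cells from 0.13 to 0.42. Under glutamate the change turned direction for Psmd12 (-0.0079) and Psmd14 (-0.032) with equal sums, for Psmb5 (0.156), Psmb6 (0.240), Psmb7 (0.173) and Psme3 (0.147) with median centring, for Psmb7 (0.0183) and Psme3 (0.0715) with quantile normalization, and for Psmb7 (0.122) and Psme3 (0.0929) with the length trend removed. The interaction of NS102 against glutamate turned for Psma1 (-0.179), Psmc3 (-0.252), Psmc4 (-0.237) and Psme1 (-0.187) with median centring. Of 1799 gene values under other settings 1693 kept their call or lack of one, 68 lost the call and 24 gained one. Another 14, all past the test in the main fit, turned direction. Turns of values that did not pass in the main fit were not counted as such. With the replicate number as a block, where the numbers share no stated source, 3 members were lower in ablated skin (Psma7 in place of Psmb6). In sorted cells 1 was higher and 4 lower, with glutamate 5 higher and 26 lower, and with NS102 2 higher and 29 lower. Deviations of same-numbered libraries correlated between -0.247 and 0.374. Those of differently numbered libraries reached 0.572 in the β-alanine comparison, a likeness that the fits did not use.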
